A study of Mus musculus with 30 samples.

Results

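The genes described here are 10 components of the actin cytoskeleton and the smooth muscle contractile apparatus: *Actb*, *Actg1*, *Acta2*, *Tagln*, *Cnn1*, *Myl9*, *Myh9*, *Myh11*, *Srf* and *Flna*. They were taken by symbol from the deposited count tables of kidney and gastrocnemius muscle, in which 55825 genes were listed in either table, and all 10 were found in both. Expression was measured by polyA-enriched RNA-seq of whole tissue from male wild-type C57BL/6J mice, 5 libraries per group and 30 in all. Every mouse was housed at thermoneutrality (30–32 °C) from 6 weeks of age, so no group represents ordinary housing. The CD group received a chow diet and water by gavage, the WD group a western diet and water, and the WD+CHP group the western diet with cyclo histidine-proline (CHP), a cyclic dipeptide, at 20 mg/kg 3 times a week; diet and CHP both began at Week 7 and tissue was taken at Week 24. There was no group of CHP on the chow diet, so CHP was compared with water only under the western diet.

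Actins are the subunits of the thin filaments that give cells their shape and, together with myosin, their ability to contract. *Actb* and *Actg1* encode the cytoplasmic actins of nearly all cells, whereas *Acta2* encodes the actin of vascular smooth muscle and of activated fibroblasts. Many of these genes carry CArG boxes, the sites bound by serum response factor (SRF), which acts with the myocardin-related cofactors that monomeric actin holds inactive. *Actb* is widely used as a loading and reference gene in expression studies.

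The list was chosen by 1 measured value in these data, the kidney level of *Actb* under CHP: of 17120 genes tested in kidney, *Actb* was the only gene called lower in the WD+CHP group than in the WD group (0.00584% of those tested). That it was the only one depends on the fit, since DESeq2 called 17 genes lower and edgeR with a replicate block 4. For this reason the kidney comparison of WD+CHP with WD is given without any test for all 10 genes, and *Actb* is given without a test in every kidney comparison. The other kidney comparisons use the same WD or WD+CHP libraries as that measurement. A gene was called when its Benjamini-Hochberg adjusted p over all genes tested was under 0.05 in edgeR's quasi-likelihood test. Levels are in CPM, a gene's counts as a share of its library's total after scaling by edgeR's trimmed mean of M values (TMM).

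The upstream sequences of the genes differ in CArG boxes, and those that hold one are shown because these are the sites through which SRF acts on the family. A CArG box is 10 letters long, with a core of 6 letters that are each A or T between a pair of C and a pair of G, and reads as a CArG box on both strands. RefSeq promoter sequences (GRCm38.p6) were at hand for 7 of the 10 genes, and the 250 bases before the start site were searched. An exact box was present in 3 of them, against 482 of 32851 windows of the same length over all genes (1.47%). Each line below gives part of the window, 5′ to 3′ on the gene's strand, with the box in capitals. The *Srf* stretch is chr17:46556195-46556264 (minus strand), the *Actg1* stretch chr11:120348556-120348605 (minus strand) and the *Myl9* stretch chr2:156775283-156775332 (plus strand).
Srf: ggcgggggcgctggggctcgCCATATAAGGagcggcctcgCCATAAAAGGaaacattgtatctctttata
Actg1: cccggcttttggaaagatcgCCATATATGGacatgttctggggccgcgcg
Myl9: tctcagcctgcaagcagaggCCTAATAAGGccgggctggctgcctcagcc
The *Srf* boxes began 82 and 62 bases before the start, the *Actg1* box 90 bases before it and the *Myl9* box 161 bases before it. The *Acta2* window, chr19:34255378-34255477 (minus strand), held no exact box but had 2 stretches in which 1 letter of the core was C or G, a looser form present in 8.59% of all windows when exact boxes are included.
Acta2: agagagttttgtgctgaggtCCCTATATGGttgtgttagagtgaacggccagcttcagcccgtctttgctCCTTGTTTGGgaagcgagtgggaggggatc
The windows of *Cnn1*, *Myh9* and *Flna* held neither form. That of *Flna* lies within chrX:74246485-74246784 (minus strand), inside the annotated gene, whose 5′ end is at 74249820. The bases before that 5′ end were not searched. These matches describe letters in a window and were not tested for binding.

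Because the actins are close copies of each other, their coding sequences were compared to see how far reads could be assigned to 1 gene. Over 1128 aligned coding bases *Actb* and *Actg1* differed at 128 and were 88.7% identical. Their longest identical run was 62 bases, so no window of 75 bases lacked a difference, whereas 30 of 1079 windows of 50 bases did (2.78%). The read length was not used in this comparison. The first 60 coding bases are shown with the differing letters in capitals.
Actb: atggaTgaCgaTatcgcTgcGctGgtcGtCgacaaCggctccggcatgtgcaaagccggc
Actg1: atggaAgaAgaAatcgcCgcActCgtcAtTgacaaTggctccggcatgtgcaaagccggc
*Acta2* shared at most 47 bases in a row with *Actb* and 56 with *Actg1*. *Acta1*, the skeletal muscle actin, shared up to 77 in a row with *Actb*, 59 with *Actg1* and 29 with *Acta2*. How the authors' counting treated reads that fit more than 1 of these genes, or the pseudogene *Actg-ps1* (0 to 6 counts in any library), is not given in the sources used here, so small differences between the actins carry that uncertainty.

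Per base of exon, *Actb* was the most abundant of the 10 genes and *Actg1* the second in both tissues and all groups. In the kidney of CD mice *Actb* stood at 225 ± 13.4 RPKM (CPM per kilobase of exon, SD, n = 5) and *Actg1* at 102 ± 11.6. Next in the kidney came *Myl9* (23.1 ± 2.55 RPKM), the regulatory light chain of smooth muscle and non-muscle myosin, and *Myh9* (20.6 ± 0.974), the heavy chain of non-muscle myosin IIA, whose library ranges overlapped each other. *Acta2* (14.3 ± 1.67), *Flna* (9.93 ± 1.02), *Srf* (9.66 ± 0.526), *Myh11* (3.17 ± 0.332) and *Cnn1* (0.466 ± 0.0823) followed, and of these only *Flna* and *Srf* overlapped. *Tagln* came last at 0.198 ± 0.0456 RPKM, on few counts. In the gastrocnemius of CD mice the order was *Actb* (83.8 ± 6.42 RPKM), *Actg1* (45.1 ± 7.10) and *Srf* (36.7 ± 0.961), the last 2 overlapping, while *Myh9* was ninth at 7.38 ± 0.368. Exon length here is the union of all exons annotated for a gene, 12928 bases for *Myh9*. Annotated exons that a tissue does not use lower a gene's RPKM, so this order depends on the annotation too. The tables were counted against different annotation releases and normalised separately, so these levels are ordered within a tissue and not compared between tissues. Levels are set across tissues only to describe the limit on *Tagln* in kidney.

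Total counts were 37189192 to 38211422 per library in kidney and 50319024 to 53282969 in gastrocnemius. The labelled tissues held: the summed level of 8 proximal tubule genes was 12900 to 13690 CPM (group means) in kidney, and that of 9 fast fibre genes was 182700 to 212100 CPM in muscle, while *Myh2* and *Myh4* had no counts in any kidney library. In kidney 1652 of 17120 genes (9.65%) were called between WD and CD, 18 (0.105%) between WD+CHP and WD, and 2070 (12.1%) between WD+CHP and CD. In gastrocnemius the numbers were 1330 of 15419 genes (8.63%), 63 (0.409%) and 1450 (9.4%). All 10 genes passed the low-count filter in both tissues, *Tagln* in kidney on 9 to 22 counts per library.

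The comparison of WD with CD asks how the diet changed these genes in kidney, where vessels, mesangium and tubular cells contribute actin. All 10 genes had a positive log2 fold change. Leaving out *Actb*, whose values in these libraries chose the list, the median of the other 9 was 0.25 against 0.00 over all genes tested. Of these 9, 3 were called, all higher (*Actg1*, *Acta2* and *Flna*), against a background of 9.65% called in either direction and 4.62% called higher. The WD and CD libraries did not overlap for 2 of the 9, *Actg1* and *Acta2*, against 8.7% of all genes tested. In whole tissue, a change in the number of cells of a type and a change in RNA per cell cannot be told apart.

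*Actb* had 658, 604, 611, 571 and 572 CPM in the CD kidneys and 806, 771, 687, 749 and 719 CPM in the WD kidneys. Every WD library lay above every CD library, and the mean was 746 ± 45.8 CPM in WD against 603 ± 35.9 CPM in CD, a log2 difference of 0.31 ± 0.05 (SE) given here without a test. In the WD+CHP kidneys *Actb* had 625, 637, 595, 624 and 628 CPM. These libraries lay below all WD libraries and within the range of the CD libraries, with a log2 difference of -0.26 ± 0.05 from WD and 0.04 ± 0.05 from CD. The WD+CHP libraries were also the closest together, with a coefficient of variation of 2.56% against 5.95% in CD and 6.13% in WD.

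*Actg1*, the other cytoplasmic actin, had 314, 279, 275, 239.9 and 242 CPM in CD and 388, 381, 354, 410.0 and 371 CPM in WD. The groups did not overlap, and *Actg1* was 1.41 times higher in WD (log2 fold change 0.50 ± 0.07, adjusted p = 0.00047), and called in each of the 10 fits that left out 1 library. With CHP it had 352, 308, 306, 325 and 355 CPM, of which 1 library passed the lowest WD value. *Actg1* was the only gene of the 10 called between WD+CHP and CD, against a background of 12.1% called in either direction and 6.25% higher, at a log2 fold change of 0.29 ± 0.07 (adjusted p = 0.0141, called in 10 of 10 such fits). Its log2 difference between WD+CHP and WD was -0.21 ± 0.07, described without a test.

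*Acta2*, the smooth muscle actin, had 31.6, 28.7, 27.8, 37.1 and 31.9 CPM in CD kidneys and 40.8, 42.4, 40.7, 37.4 and 45.0 in WD kidneys. The lowest WD library lay just above the highest CD library, and the log2 fold change was 0.39 ± 0.11 (adjusted p = 0.0308). With single libraries removed, this call was kept only when replicate 4 of CD or of WD was the one dropped (2 of 10 fits), with adjusted p from 0.0153 to 0.0723. The WD+CHP kidneys were widely spread, at 27.6, 34.4, 30.4, 43.5 and 41.7 CPM, overlapping both other groups. *Flna*, which cross-links actin filaments and anchors them to the membrane, had 90.9, 92.5, 84.3, 109.6 and 89.4 CPM in CD and 110.9, 128, 105, 106 and 109 CPM in WD. The groups overlapped through 1 high CD library, and the log2 fold change of 0.26 ± 0.07 (adjusted p = 0.0282) was kept in 4 of 10 fits that left out 1 library (adjusted p 0.00512 to 0.0713). Without CD replicate 1, 2, 3 or 5, or without WD replicate 1 or 2, the count of called genes among the 9 fell from 3 to 1.

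The remaining kidney genes were not called. *Myl9* was 32.01 ± 1.83 CPM in WD and 26.9 ± 2.97 in CD (log2 fold change 0.25 ± 0.09, adjusted p = 0.0783), though DESeq2 called it (adjusted p = 0.0461). *Srf* was 30.4 ± 1.01 and 27.9 ± 1.52 CPM (0.12 ± 0.05, adjusted p = 0.143), and *Myh11*, the smooth muscle myosin heavy chain, was 27.5 ± 3.98 and 24.1 ± 2.52 CPM (0.19 ± 0.12, adjusted p = 0.339). *Myh9* had the smallest difference, at 277 ± 13.0 against 267 ± 12.6 CPM (0.05 ± 0.05, adjusted p = 0.535). *Cnn1*, the calponin of differentiated smooth muscle, had only 29 to 97 counts per library in kidney and a log2 difference of 0.48 ± 0.29 (adjusted p = 0.31).

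**Figure D1:**
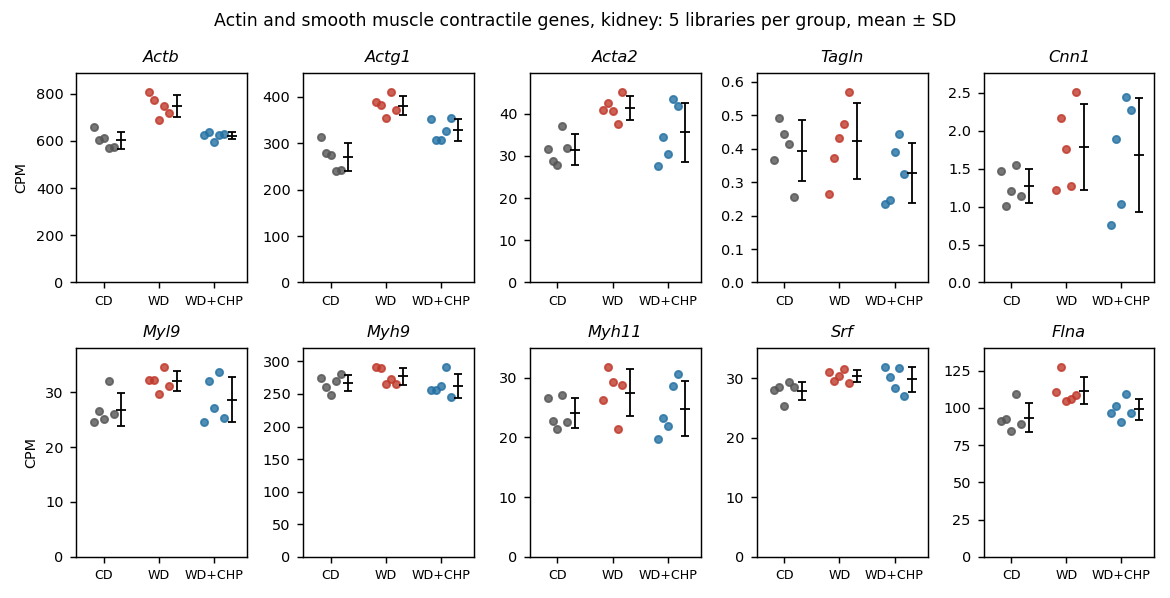
Level in CPM (y axis, from 0) of each of the 10 genes in kidney for the CD, WD and WD+CHP groups (x axis). Points are the 5 libraries of a group and black bars the mean ± SD; the WD points of Actb and Actg1 lie above all CD points, and the Actb points of WD+CHP lie below all WD points.

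Under CHP, all 10 kidney genes had a negative log2 difference from WD, with a median of -0.17 against -0.01 over all genes tested, although *Cnn1* turned to 0.10 without WD+CHP replicate 1 and *Srf* to 0.0089 without WD+CHP replicate 5. These values are a description, since this comparison chose the list, and the WD libraries that stand high here are those that stand high against CD. Apart from *Actb*, no gene of the 10 was free of overlap between WD+CHP and WD (2.36% of all genes tested were without overlap in either direction). *Actg1* (-0.21), *Acta2* (-0.22), *Flna* (-0.17), *Myl9* (-0.16), *Myh11* (-0.15), *Cnn1* (-0.09), *Myh9* (-0.08) and *Srf* (-0.02) all lay nearer to 0 than *Actb*, and *Tagln* was at -0.37 ± 0.25 on its few counts. The call of *Actb* itself was lost in 7 of the 10 fits that left out 1 library (kept on dropping replicate 2 or 3 of WD, or replicate 5 of WD+CHP), in the fit of these 2 groups alone and in both fits with a length and GC correction. Its log2 difference ranged from -0.29 to -0.23 over the 10 fits that left out 1 library.

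*Tagln*, an actin-binding protein abundant in smooth muscle, had 14, 19, 17, 16 and 10 counts in the CD kidneys, 10, 14, 16, 18 and 22 in WD and 9, 9, 14, 16 and 12 in WD+CHP. The groups overlapped fully. In muscle the same gene had 969 to 2236 counts. In the GENCODE annotation 62.4% of the exonic bases of *Tagln* (1241 of 1988) lie opposite exons of the antisense gene *Gm48529* and 108 opposite *Pcsk7*. Among the protein-coding genes compared, the median log2 ratio of kidney to gastrocnemius was 0.85 for the 9038 with no exonic bases opposite another gene, -2.5 for the 37 with over 60 to 90% and -6.14 for the 8 with over 90%, and all 8 of the last were under 0.5 CPM in kidney and none in gastrocnemius. Whether counting treated strand differently in the tables was not tested, and this limit applies to every kidney value of *Tagln*.

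Markers of the cells a kidney sample holds were summed per library. The summed level of 9 vascular smooth muscle and pericyte markers was 131 to 161 CPM in CD, 153 to 188 in WD and 142 to 156 in WD+CHP libraries, with 3 of 9 called between WD and CD, 2 of them higher. The summed level of 8 fibroblast markers was 88.5 to 122 CPM in CD, 110.3 to 131 in WD and 91.6 to 122 in WD+CHP, with 2 of 8 called higher in WD than CD. All 8 had a positive log2 difference between WD and CD (median 0.32) and all 8 a negative one between WD+CHP and WD (median -0.23). That of 8 endothelial markers was 509 to 606 CPM in CD, 537 to 616 in WD and 474 to 568 in WD+CHP, with 1 called higher in WD than CD and all 8 at a negative log2 difference from WD under CHP (median -0.12). Sums of macrophage (7 genes, group means of 105 to 110.4 CPM), podocyte (6 genes, 383 to 412 CPM) and proximal tubule markers overlapped between all groups. Of 8 proximal tubule markers 1 was called higher and 1 lower in WD than CD, and as many in WD+CHP than CD. No macrophage or podocyte marker was called. No marker of these lists was at 0 in a group, and none was called between WD+CHP and WD. Of 7 adipocyte markers 5 were tested in kidney, with levels down to 0.394 CPM on average. All 5 had a negative log2 difference between WD and CD (median -0.37, 1 called). All 5 had a positive one between WD+CHP and WD (median 0.13, none called). The part of any of these lists in the results for *Acta2*, *Flna* and the cytoplasmic actins was not tested.

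In gastrocnemius 3 of the 10 genes were called between WD and CD, all higher (*Acta2*, *Tagln* and *Flna*), against a background of 8.63% called in either direction and 4.67% higher. The median log2 fold change was 0.22 against 0.00 over all genes tested, with 8 genes positive and *Actg1* and *Srf* negative. Groups were without overlap for 4 of the 10, against 7.84% of all genes tested. Between WD+CHP and CD the same 3 genes were called higher, against 9.4% called in either direction and 4.85% higher, and *Acta2* and *Tagln* were without overlap, against 8.75%.

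*Acta2* had 48.9, 49.6, 38.2, 50.7 and 50.2 CPM in CD muscle, 69.3, 58.9, 67.3, 81.3 and 82.0 CPM in WD and 69.1, 59.0, 73.8, 61.8 and 85.9 CPM in WD+CHP. Every library of both western diet groups lay above every CD library. The log2 fold change was 0.59 ± 0.11 for WD (adjusted p = 0.00315) and 0.56 ± 0.11 for WD+CHP (adjusted p = 0.00531) against CD, the 2 comparisons sharing the CD libraries, and -0.04 ± 0.11 between them (adjusted p = 0.924). Both calls against CD were kept in 10 of 10 fits that left out 1 library.

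*Tagln* had 28.6, 25.9, 18.9, 22.7 and 27.4 CPM in CD muscle, 33.1, 30.7, 30.5, 41.3 and 42.6 CPM in WD and 28.8, 31.2, 35.8, 32.3 and 36.0 CPM in WD+CHP. The lowest library of each western diet group lay above the highest CD library, in the case of WD+CHP by little. The log2 fold change was 0.53 ± 0.12 for WD (adjusted p = 0.00953, kept in 10 of 10 fits) and 0.41 ± 0.12 for WD+CHP (adjusted p = 0.0371, kept in 4 of 10, those without CD replicate 1, 2 or 5 or WD+CHP replicate 1, adjusted p 0.0303 to 0.0940). *Flna* had 113, 124, 105, 111 and 113 CPM in CD, 157, 139, 147, 140.1 and 131 CPM in WD and 144, 119, 141, 131 and 153 CPM in WD+CHP. WD did not overlap CD, and WD+CHP did so by 1 library. Its log2 fold changes were 0.34 ± 0.07 (adjusted p = 0.0051) and 0.28 ± 0.07 (adjusted p = 0.0152), both kept in 10 of 10 fits.

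**Figure D2:**
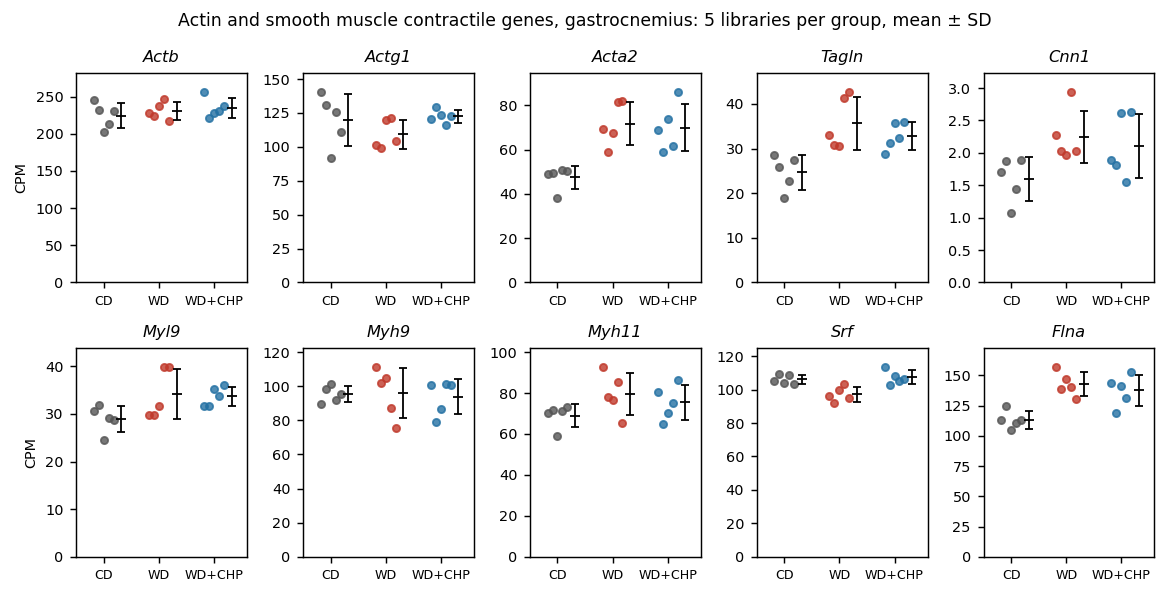
Level in CPM (y axis, from 0) of each of the 10 genes in gastrocnemius for the CD, WD and WD+CHP groups (x axis). Points are the 5 libraries of a group and black bars the mean ± SD; for Acta2 and Tagln all WD and WD+CHP points lie above the CD points, whereas Actb and Myh9 overlap throughout.

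The other smooth muscle genes had positive log2 differences in WD muscle that did not pass the test. *Cnn1* was 2.25 ± 0.402 CPM in WD and 1.60 ± 0.342 in CD, without overlap (log2 difference 0.49 ± 0.18, adjusted p = 0.0994). *Myl9* was 34.2 ± 5.24 and 29.0 ± 2.76 CPM (0.24 ± 0.09, adjusted p = 0.115), with 2 WD libraries near 40 CPM and the others within the CD range. *Myh11* was 79.7 ± 10.3 and 69.0 ± 5.71 CPM (0.21 ± 0.09, adjusted p = 0.175). The cytoplasmic actin *Actb* was 230.4 ± 12.0 CPM in WD and 224 ± 17.2 in CD (0.04 ± 0.06, adjusted p = 0.741), and 235 ± 13.1 in WD+CHP. *Myh9* was 96.2 ± 14.7 and 95.4 ± 4.75 CPM (0.01 ± 0.09, adjusted p = 0.96).

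*Srf* and *Actg1* were the genes that lay lower in WD muscle. *Srf* had 105, 109, 104, 109 and 103 CPM in CD, 96.1, 91.9, 99.9, 104 and 94.7 CPM in WD and 114, 103, 108, 105 and 107 CPM in WD+CHP. Of the WD libraries 4 lay below every library of the other groups. The log2 difference of WD from CD was -0.13 ± 0.04 (adjusted p = 0.077) and that of WD+CHP from WD 0.14 ± 0.04 (unadjusted p = 0.00395, adjusted p = 0.172), so neither was called in edgeR as fitted here. DESeq2 called both, with adjusted p of 0.035 and 0.0438, and edgeR called the first with a length and GC correction (adjusted p = 0.0242) or without WD replicate 4 (adjusted p = 0.0433). *Actg1* had 140.2, 131, 92.0, 126 and 111 CPM in CD, 101, 99.3, 120.0, 121 and 104 in WD and 120.4, 129.6, 123, 116 and 123 in WD+CHP. The CD libraries spanned the others, and no comparison passed the test (adjusted p 0.401, 0.492 and 0.878).

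No gene of the 10 was called between WD+CHP and WD in muscle by edgeR, against a background of 0.409%; 1 had an unadjusted p under 0.05 and DESeq2 called 1, *Srf* in both cases. The median log2 difference was -0.04, with 3 genes positive and 7 negative. Marker lists were summed in the same way. The summed level of 7 adipocyte markers was 110.6 to 162 CPM in CD, 192 to 233 in WD and 115 to 177 in WD+CHP libraries, with 4 of 7 called higher in WD than CD and 4 of 7 lower in WD+CHP than WD. The sum of 8 endothelial markers was 328 to 386 CPM in CD, 319 to 368 in WD and 328 to 377 in WD+CHP. The sum of 9 smooth muscle and pericyte markers, which includes desmin, a protein of muscle fibres too, was 3494 to 3858, 3474 to 3760 and 3845 to 4176 CPM, of which desmin made up 3396 CPM on average. Without desmin the sum of the other 8 was 335 to 415 CPM in CD, 355 to 403 in WD and 343 to 389 in WD+CHP libraries, overlapping between all groups. Of the 9, 5 had a positive and 4 a negative log2 difference between WD and CD, with a median of 0.06. Calls in this list numbered 2 of 9 between WD and CD and 1 of 9 between WD+CHP and CD, all higher. The sum of 9 fast fibre genes, *Acta1* included, was 192900 to 229700 CPM in CD, 169500 to 196900 in WD and 178600 to 205200 in WD+CHP, with 2 of 9 called lower in WD than CD. Fibroblast sums were 574 to 998, 567 to 996 and 504 to 723 CPM (8 genes) and macrophage sums 45.9 to 77.0, 51.6 to 84.7 and 40.3 to 72.0 CPM (7 genes), with none called between WD and CD. All 7 macrophage markers were positive between WD and CD (median 0.26) and negative between WD+CHP and WD (median -0.37). Of the 8 fibroblast markers 4 were positive and 4 negative between WD and CD. All 8 were negative between WD+CHP and WD (median -0.22), and 1 was called lower in WD+CHP than CD. None of these lists was tested for its part in the values of the 10 genes.

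**Figure D3:**
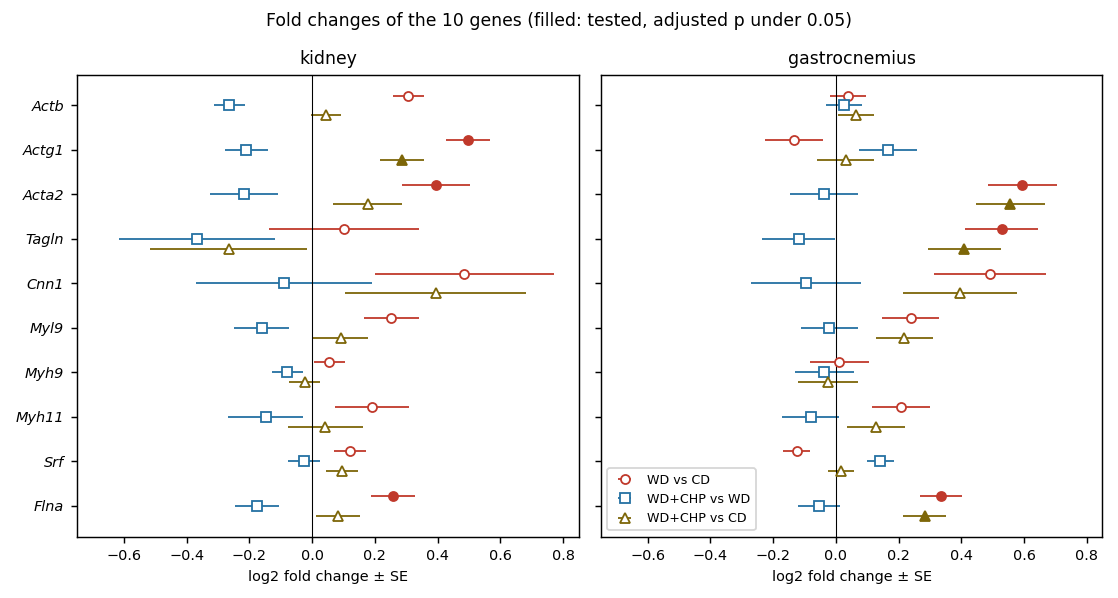
Log2 fold change ± SE (x axis) of the 10 genes (rows) in kidney (left) and gastrocnemius (right) for WD vs CD (circles), WD+CHP vs WD (squares) and WD+CHP vs CD (triangles). Filled symbols are tested values with adjusted p under 0.05: Actg1, Acta2 and Flna for WD vs CD and Actg1 for WD+CHP vs CD in kidney, and Acta2, Tagln and Flna for both western diet groups against CD in muscle, where the squares lie near 0; kidney squares and all kidney Actb symbols are descriptions without a test.

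The balance of the cytoplasmic actins was followed as the log2 ratio of *Actb* to *Actg1* counts, which does not depend on library scaling. In kidney the ratio was 1.07, 1.11, 1.15, 1.25 and 1.24 in CD and 1.05, 1.01, 0.96, 0.87 and 0.95 in WD. The groups did not overlap, and the mean was 0.97 ± 0.07 in WD against 1.17 ± 0.08 in CD. This is given without a test, because the ratio holds the kidney *Actb* values by which the list was chosen. In WD+CHP kidneys the ratio was 0.83, 1.05, 0.96, 0.94 and 0.82, a mean of 0.92 ± 0.10 against 0.97 ± 0.07 in WD, given without a test. These libraries all lay below the CD libraries, with a mean difference of -0.25 from CD, also without a test.

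In gastrocnemius the ratio lay the other way and was not separated. The mean was 0.92 ± 0.17 (SD, n = 5) for CD mice, 1.08 ± 0.09 for WD mice and 0.94 ± 0.12 with CHP. WD minus CD was 0.16 (p = 0.0952 by an exact two-sided permutation test, 0.143 after adjustment over the 3 ratio comparisons tested), WD+CHP minus WD was -0.14 (exact p = 0.0635, adjusted p = 0.143) and WD+CHP minus CD was 0.02 (exact p = 0.833).

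**Figure D4:**
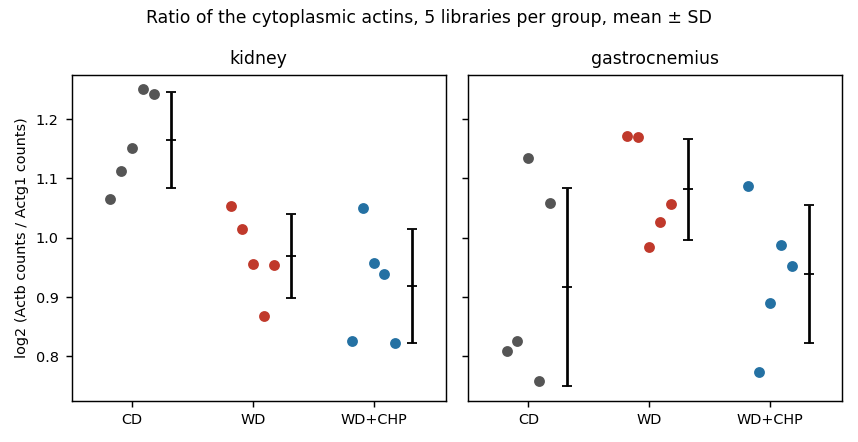
Log2 of the ratio of Actb to Actg1 counts (y axis, not starting at 0) per library in kidney (left) and gastrocnemius (right) for each group (x axis). Points are libraries and bars the mean ± SD of 5; the kidney CD points (1.07 to 1.25) all lie above the WD points (0.87 to 1.05), and the muscle groups overlap.

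Whether the diet effect differed between tissues was tested in 1 fit of all 30 libraries over the 18708 genes shared by both tables and kept. Of the 9 genes other than *Actb*, 2 were called, against a background of 4.13%. *Actg1* had a difference of -0.63 ± 0.13 (log2 fold change in muscle minus that in kidney, adjusted p = 0.0027), being higher in WD kidney and lower in WD muscle. *Srf* had a difference of -0.25 ± 0.07 (adjusted p = 0.0352), which was kept in 8 of 20 fits that left out 1 library, with adjusted p of up to 0.0816, whereas *Actg1* was called in 20 of 20. For *Acta2* (0.20 ± 0.16), *Tagln* (0.43 ± 0.30, on its few kidney counts) and *Flna* (0.08 ± 0.10) the tissues were not told apart (adjusted p = 0.581, 0.505 and 0.772). Which kidney and muscle samples came from the same mice is not stated. The paper lists too few mice of this age for all samples to come from separate mice. The fit had no term for mouse and treated all 30 libraries as independent. Its adjusted p therefore takes no account of mice that gave both tissues.

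The wider actin pathway was described through lists of genes outside the 10. These lists were chosen with earlier results of these data known and share some genes, so their counts are a description. Of 16 other SRF and MRTF target genes, 7 were called in WD muscle, all higher, with a median log2 fold change of 0.26, and 2 in WD kidney, with a median of 0.12. Over all genes tested 4.67% were called higher in muscle and 4.62% in kidney, and the counts of the other lists are to be read against these shares. In muscle the largest were *Fhl2*, a LIM-domain protein (1.03 ± 0.21, adjusted p = 0.00569), *Ankrd1*, a stretch-responsive ankyrin repeat protein (0.97 ± 0.24, adjusted p = 0.0168), and *Itga5*, the fibronectin receptor subunit (0.47 ± 0.09, adjusted p = 0.00431); in kidney *Actn1*, an alpha-actinin, was higher by 0.31 ± 0.07 (adjusted p = 0.012) and the tropomyosin *Tpm4* by 0.18 ± 0.04 (adjusted p = 0.017). The SRF cofactors themselves were not called in any comparison (5 tested in kidney and 6 in muscle; adjusted p for WD vs CD from 0.0776 upwards).

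Of 18 further smooth muscle contractile genes tested in kidney, 4 were called higher in WD (median log2 fold change 0.29), among them *Ppp1r14a*, an inhibitor of myosin phosphatase (0.66 ± 0.12, adjusted p = 0.00375), desmin, *Des* (0.36 ± 0.10, adjusted p = 0.039), and *Smtn*, smoothelin (0.32 ± 0.06, adjusted p = 0.00533). Of 20 tested in muscle 1 was called, *Mustn1*, at 0.33 ± 0.10 (adjusted p = 0.0435), near the share over all genes (4.67% higher). This list is not particular to smooth muscle in gastrocnemius. Its summed level was 23800 to 26160 CPM there (group means), and it includes desmin, which muscle fibres also make. Among actin cross-linkers and relatives of *Tagln* and *Cnn1*, *Tagln2* and *Cnn2* were higher in WD in both tissues: *Tagln2* by 0.40 ± 0.06 in kidney (adjusted p = 0.000497) and 0.30 ± 0.08 in muscle (adjusted p = 0.0365), and *Cnn2* by 0.29 ± 0.08 (adjusted p = 0.0385) and 0.53 ± 0.10 (adjusted p = 0.00431). Both have forms outside smooth muscle. *Flnc*, the filamin of striated muscle, was higher in WD muscle by 0.39 ± 0.11 (adjusted p = 0.0321).

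Of 26 filament turnover genes, 4 were called higher in WD muscle and 2 in WD kidney, the latter near the share over all genes; *Actr2* (0.22 ± 0.05) and *Actr3* (0.20 ± 0.03), subunits of the Arp2/3 complex that nucleates branched filaments, were among those in muscle. *Myh10*, the heavy chain of non-muscle myosin IIB, rose in WD muscle from 27.2 ± 7.38 to 51.6 ± 7.41 CPM (0.92 ± 0.16, adjusted p = 0.00162), whereas its relative *Myh9* did not pass the test. The sarcomeric actins went the other way in muscle: *Acta1* fell from 40920 ± 1823 to 35030 ± 1314 CPM (-0.22 ± 0.06, adjusted p = 0.0288) and *Actc1*, the cardiac and developmental isoform, from 268 ± 149 to 104 ± 20.2 CPM (-1.36 ± 0.28, adjusted p = 0.00649). Between WD+CHP and WD, no gene of these lists was called by edgeR in either tissue.

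**Figure D5:**
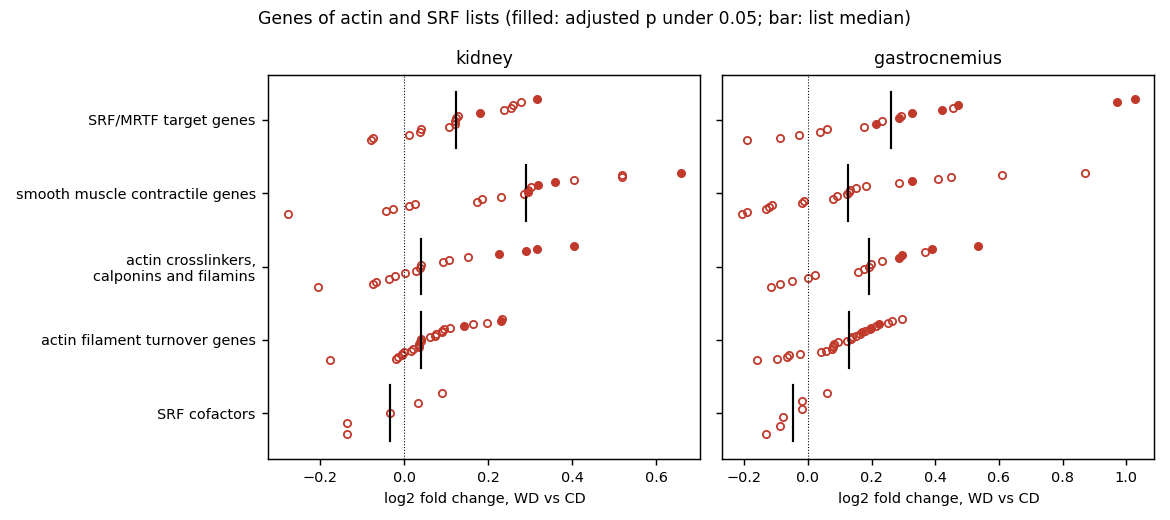
Log2 fold change of WD vs CD (x axis) for genes of 5 lists outside the 10 genes (rows) in kidney (left) and gastrocnemius (right). Each point is a gene, filled where adjusted p was under 0.05, and the black bar is the list median, 0.12 in kidney and 0.26 in muscle for SRF and MRTF targets.

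Within groups, the genes fell into sets that varied together from library to library. Values here are Pearson correlations of log2 CPM over the 15 libraries of a tissue after subtracting group means, given as a description without a test; libraries share depth and tissue sampling. In kidney *Actb* followed *Actg1* (0.73) and was near 0 with *Acta2* (-0.08), while *Acta2*, *Cnn1* and *Myh11* followed each other (0.84 to 0.87). In gastrocnemius *Tagln* followed *Myl9* (0.88) and *Acta2* (0.77), and *Myh9* ran against *Tagln* (-0.57) and *Myl9* (-0.59). Over 12407 genes, those most like *Actb* in kidney were *Ikbip* (0.86), *Dysf* (0.85), *Rsl1d1* (0.83), *Arvcf* (0.81) and *Tmem159* (0.80). In gastrocnemius, over 10818 genes, they were *Sfxn5* (0.84), *Asb4* (0.84), *Arf6* (0.82), *Abt1* (0.78) and *Tapbpl* (0.77). The genes most like the mean of *Acta2*, *Tagln*, *Cnn1* and *Myh11* were *Ccnt2* (0.84) in kidney, where *Tagln* had few counts, and *Ppp1r16b* (0.81) in muscle.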

How the data were processed

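The deposited files hold raw read counts per gene, made by the authors from polyA-enriched BGISEQ-500 libraries of single mice; the submitters' processing notes name STAR 2.7.3a and the build GRCm38 (mm10), and the counting program and strand setting are not given in the sources used here. The labels' extraction text names liver for every sample, whereas their tissue fields and the marker genes give kidney and gastrocnemius. From the counts, each tissue was fitted in edgeR 4.0.16 (R 4.3.3) with its 3 groups of 5 libraries, TMM scaling, filterByExpr at a minimum count of 10 and the quasi-likelihood test, p-values being adjusted by Benjamini-Hochberg across every gene that passed the filter. edgeR was the main test because the files hold counts; the study's package, limma (3.58.1 here), was an alternative, as was DESeq2 1.42.0. The tissue difference was the interaction in 1 fit of both tables, with no term for mouse. Gene positions, exon lengths and overlaps came from GENCODE M21 (GRCm38), promoters from RefSeq. The scripts were tested on simulated counts. No pair of libraries agreed within sampling noise. With 9.62% (kidney) and 11.6% (gastrocnemius) biological coefficient of variation, precision rests on the 5 mice rather than on depth, except for kidney *Tagln* and for *Cnn1* in both tissues, whose counts are low. The kidney ratio of *Actb* to *Actg1* was planned with a test, which is not given because kidney *Actb* chose the list.

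The 10 genes and the gene lists were chosen with earlier results of these data known. Named genes are the 10, up to 3 of each list per comparison with the largest absolute log2 fold change among those with adjusted p under 0.05 and mean log2 CPM of at least 1, and the 5 genes most correlated with *Actb* (in the text also the first for the smooth muscle mean); all reference genes may be named. Marker lists are given as counts and sums, and some results of the pathway and reference lists are not reported here. Alternatives covered tool, scaling, filter, the 2 groups alone, a replicate block, a length and GC correction, each library left out and a threshold of 0.1.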

Additional observations from a re-analysis of the deposited data

Results flagged for a closer look

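The diet effect differed between the tissues for *Actg1* and *Srf* by a test of the difference itself (edgeR, adjusted p = 0.0027 and 0.0352). The log2 fold change of WD vs CD in gastrocnemius minus that in kidney was -0.632 for *Actg1* and -0.247 for *Srf*. *Actg1* was 0.50 higher in WD kidney and 0.13 lower on the log2 scale in WD muscle, and *Srf* 0.12 higher and 0.13 lower. Within a tissue only *Actg1* in kidney was called (adjusted p = 0.401 for *Actg1* in muscle, and 0.143 in kidney and 0.077 in muscle for *Srf*). The tissue difference was called in 20 of 20 fits that left out 1 library for *Actg1* and in 8 of 20 for *Srf*. These fits had no term for mouse, though some mice must have given both tissues.

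Sets of 5 libraries were checked for a library far from the others by Dixon's gap over range, taken on the log2 scale. Chance passes the limit of 0.71 in about 1 set of 20. Of 66 sets 3 passed it, which is near that rate. In gastrocnemius CD replicate 3, *Acta2* was 38.2 CPM against 48.9 in the next library (gap over range 0.874) and *Myh11* 58.9 against 70.4 (0.829). This library was the lowest of its group for 8 of the 10 genes and the highest for *Myh9*. Without it the calls of *Acta2*, *Tagln* and *Flna* between WD and CD were kept, and that of *Tagln* between WD+CHP and CD was lost (adjusted p = 0.0871). In kidney WD replicate 2, *Flna* was 128 CPM against 110.9 in the next (0.718); without it the call of *Flna* between WD and CD was lost (adjusted p = 0.0713).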

How the results depend on the processing

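Calls of *Actg1* in kidney and of *Acta2* and *Flna* in muscle against CD were kept in every fit that left out 1 library, and those of *Acta2* and *Flna* in WD kidney were not. Leaving out 1 library, between 2 and 5 of the 10 genes were called for WD vs CD in kidney (4 with all, *Actb* counted in each), 0 to 1 for WD+CHP vs WD (the 1 being *Actb*) and 1 for WD+CHP vs CD; in gastrocnemius 3 to 4, 0 and 2 to 3. Kidney counts that hold *Actb* only describe the choice of the list and are not test results. The counts over all genes then ranged from 1142 to 1744, 0 to 97 and 1202 to 2150 in kidney and from 965 to 1421, 12 to 92 and 873 to 1617 in gastrocnemius. For the tissue difference, 1 to 2 of the 9 genes other than *Actb* were called.

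In kidney WD+CHP vs WD, none of the 10 genes was called with the length and GC correction, with it and the replicate block, or in the fit of the 2 groups alone; over all genes 0 were called with the correction and with the 2 groups alone, 37 without a filter, 168 by DESeq2, 70 with the replicate block and 75 at a threshold of 0.1. In muscle WD+CHP vs WD, DESeq2 called 1 of the 10 genes and 249 of all, and 40 were called without a filter. At a threshold of 0.1, 5 of the 10 genes were called for WD vs CD in muscle, and over all genes 2647 and 3232 in kidney (WD and WD+CHP vs CD) and 2193 and 2429 in muscle. Total count scaling left 1 of 9 genes called for the tissue difference, and moved the split of higher to lower calls to 660 and 1814 from 1070 and 1000 (kidney WD+CHP vs CD), to 1506 and 346 from 720 and 610 (muscle WD vs CD) and to 0 and 54 from 10 and 53 (muscle WD+CHP vs WD); no scaling moved the median of all genes by over 0.1. The cause of these differences was not tested.

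The kidney ratio of *Actb* to *Actg1* is a description without a test (difference of WD from CD in log2 ratio -0.22 to -0.17 without 1 library and -0.20 for medians or within replicate numbers). In muscle it was 0.12 to 0.22 (WD vs CD), -0.18 to -0.10 (WD+CHP vs WD) and -0.019 to 0.075 (WD+CHP vs CD).

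Among tested log2 fold changes, directions turned only for genes that were not called in that comparison. Without 1 library they ranged as follows. In kidney WD vs CD they were for *Tagln* -0.026 to 0.23. In kidney WD+CHP vs CD they were for *Myh9* -0.063 to 0.0038 and *Myh11* -0.043 to 0.12. In gastrocnemius WD vs CD they were for *Myh9* -0.048 to 0.087. In gastrocnemius WD+CHP vs WD they were for *Actb* -0.0060 to 0.053, *Acta2* -0.12 to 0.018, *Cnn1* -0.19 to 0.019, *Myl9* -0.067 to 0.042 and *Myh9* -0.11 to 0.022. In gastrocnemius WD+CHP vs CD they were for *Actg1* -0.051 to 0.094, *Myh9* -0.055 to 0.029 and *Srf* -0.0055 to 0.034. In kidney WD+CHP vs WD, given without a test, the range was -0.26 to 0.10 for *Cnn1* and -0.047 to 0.0089 for *Srf*. Under other settings *Myh11* in kidney WD+CHP vs CD was -0.011 with total count scaling, *Myh9* in gastrocnemius WD vs CD was -0.0014 with limma-voom, -0.010 with the length and GC correction, -0.013 with the replicate block with length and GC correction, *Actb* in gastrocnemius WD+CHP vs WD was -0.018 with total count scaling, *Srf* in gastrocnemius WD+CHP vs CD was -0.088 with the length and GC correction, -0.089 with the replicate block with length and GC correction.

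The shared replicate numbers do not pair the samples: the labels name no shared mouse, and the correlation of same-numbered deviations ranged from -0.226 to 0.237, over 0.1 in 0 to 2 of 5 pairs, so the replicate block serves as a check only. *Myl9* was also called in WD kidney with the block (0.26, adjusted p = 0.0139), the block and length correction (0.0257), the 2 groups alone (0.0378), DESeq2 (0.0461) and without CD replicate 4 (0.0203). *Srf* was also called in WD muscle by DESeq2 (-0.13, adjusted p = 0.035), with the length and GC correction (-0.16, 0.0242), with it and the block (-0.16, 0.0348) and without WD replicate 4 (-0.15, 0.0433). With the block, among the 10 genes, no call was lost without the length correction.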

Other observations

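*Actb* is often used as a reference gene, so 14 other genes used for that purpose were looked at in the same fits. In kidney 5 of the 14 were called between WD and CD, against 9.65% of all genes tested, and in gastrocnemius 5, against 8.63%. *Gapdh*, the glycolytic enzyme, moved in opposite directions: it was 1883 ± 88.8 CPM in WD kidney against 1553 ± 51.8 in CD (log2 fold change 0.28 ± 0.04, adjusted p = 0.00101) and 6602 ± 284 against 8624 ± 445 CPM in muscle (-0.39 ± 0.05, adjusted p = 0.000411). *Tuba1a*, an alpha-tubulin, was higher in WD muscle by 0.70 ± 0.11 (adjusted p = 0.000751) and *B2m*, the light chain of class I histocompatibility molecules, in WD kidney by 0.23 ± 0.06 (adjusted p = 0.0264). None of the 14 was called between WD+CHP and WD in either tissue by edgeR. *Actb* itself was 1.24 times higher in WD than CD kidney, a description without a test, and 1.03 times in muscle (adjusted p = 0.741).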
